A study of Mus musculus and Homo sapiens with 9 samples.

Results

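The 10 genes described here are Bbc3, Bax, Aen, Phlda3, Trp53inp1, Apaf1, Zmat3, Perp, Pmaip1 and Fas, a named list of p53 target genes linked to apoptosis, out of 21887 protein-coding mouse genes on placed chromosomes. The study mapped the DNA repair enzyme TDG (thymine DNA glycosylase) and the transcription factor p53 by chromatin immunoprecipitation and sequencing (ChIP-seq). Of its 9 samples, 2 libraries are used here, and both came from B16 mouse melanoma cells whose Tdg gene carries an HA tag by knock-in (Tdg HA knockin), with Trp53 not listed as altered. An HA antibody was used in 1 of them to recover tagged TDG and a p53 antibody in the other to recover p53. The labels list no treatment for these cells and do not say whether the knock-in line is 1 clone. The other 7 samples, which include cells with an untagged Tdg gene given the HA antibody and Trp53 KO cells given the p53 antibody, were not analysed here. Therefore whether a given peak depends on the tag or on p53 was not tested.

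In cells under stress, p53 binds paired copies of a short DNA element near its targets and raises their transcription. Among these targets, Bbc3 (PUMA) and Pmaip1 (NOXA) encode BH3-only proteins that neutralise the guardians of the BCL-2 family, and Bax encodes a protein that then opens the outer mitochondrial membrane. Apaf1 encodes the scaffold of the apoptosome, which activates caspases after cytochrome c has been released. Fas encodes a death receptor at the cell surface and Perp a membrane protein. Aen encodes a nuclease linked to apoptosis, Phlda3 a repressor of the survival kinase AKT, Trp53inp1 a nuclear protein that takes part in p53-driven cell death, and Zmat3 an RNA-binding zinc finger protein.

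A p53 peak was assigned to a gene when its summit lay inside the gene or when the gene's end was the nearest end of any protein-coding gene. By that rule 6 of the 10 genes had a p53 peak, namely Bbc3, Bax, Aen, Phlda3, Trp53inp1 and Zmat3, against 0.512% of all protein-coding genes. A TDG peak was assigned when its summit lay inside the gene or within 1 kb of either end. Trp53inp1 and Apaf1 had one, 2 of 10 genes, against 14.8% of all protein-coding genes, which is close to the share among the 10. Counting only summits within 1 kb of an end gave the same 2 genes, against 12.3% of all protein-coding genes, and applying the TDG rule to p53 gave the same 6 genes, against 0.292%. Trp53inp1 was the 1 member with both kinds, and 0.142% of all protein-coding genes had both. Perp, Pmaip1 and Fas had neither. The 10 genes were chosen with these peak lists already examined and each list stands for 1 library, so the counts are descriptions with no replicate error and no test.

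**Figure D1:**
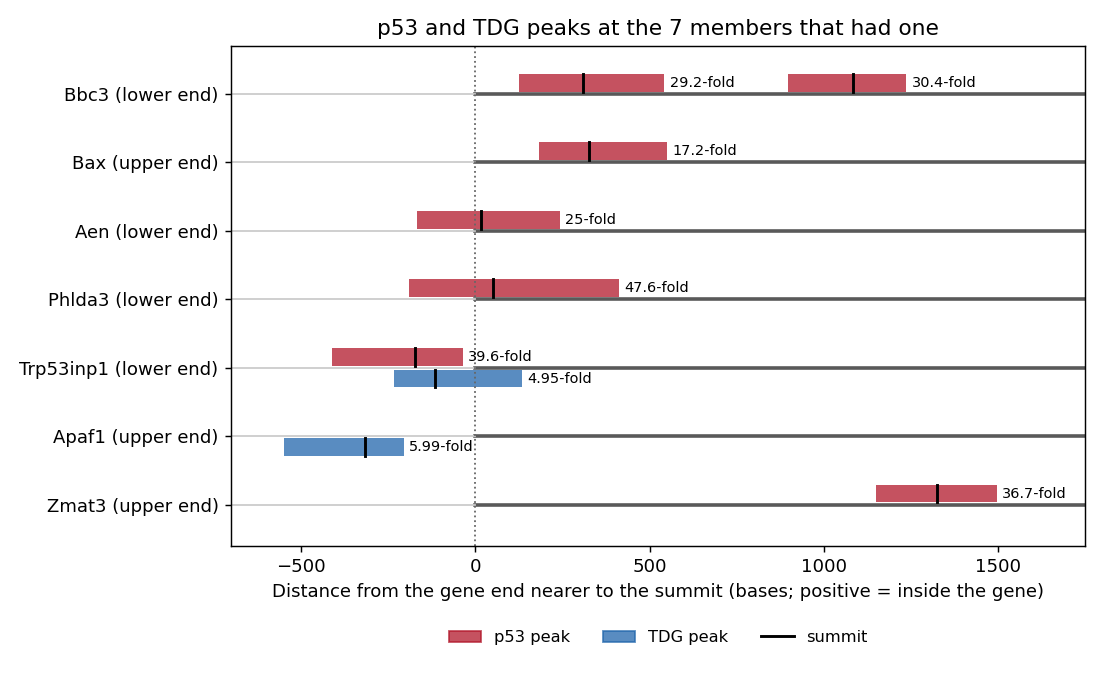
Peaks at the 7 members that had one, drawn to scale by distance in bases from the gene end nearer to the summit, with positive distances inside the gene, red bars for p53, blue bars for TDG and black ticks for summits. The p53 and TDG peaks of Trp53inp1 overlap, the p53 summit of Zmat3 lies 1325 bases inside the gene, and the TDG peak of Apaf1 lies outside it.

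The strength of each peak is given as the authors' fold enrichment at the summit, used only within its own list. The number of reads at each summit was recovered from the deposited fold and p-value, with an exact Poisson 95% interval that covers counting error only. In the p53 list of 126 peaks the median fold was 13.5 (quartiles 7.96 and 22.4), and in the TDG list of 3410 peaks it was 5.74 (quartiles 4.95 and 6.77). At the most frequent local background, the weakest peaks called had 23 reads at the summit and 6.35-fold for p53, and 15 reads and 4.18-fold for TDG. A gene without a peak may therefore hold binding below these levels.

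Among the triggers of the mitochondrial pathway, Bbc3 carried 2 p53 peaks and Pmaip1 none. Of all protein-coding genes, 0.032% had 2 or more p53 peaks. The first Bbc3 peak (mm10, chr7:16308524-16308940) reached 29.2-fold with 146 reads at the summit (interval 123 to 172), and its summit lay 308 bases inside the lower-coordinate end of the gene (16308398 to 16318334). The second peak (chr7:16309294-16309634) reached 30.4-fold with 115 reads (interval 94.9 to 138), 1084 bases inside the same end. Their summits were 776 bases apart and 353 bases between the peaks belonged to neither. The intervals of the 2 read counts overlapped, which does not settle whether the counts differ beyond counting error, and the difference was not tested. The gene reads upward in coordinates, so its lower-coordinate end lies before both summits, and that end had no RefSeq promoter window (described below). Bbc3 had 3 transcript starts with such a window. Of these, the start nearest to both summits lay 101 bases after the second summit and 877 bases after the first.

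The promoter window of that start, 250 bases before it and 50 after it, lay wholly inside the second p53 peak. The p53 consensus consists of paired 10-base half-sites, and each was required here to hold its central C and G, with at most 3 mismatches over the pair. The consensus is its own reverse complement, so the search covered both strands, and these limits were set after the member sequences had been seen. The Bbc3 window, from RefSeq on GRCm38.p6 and the plus strand, is shown because it holds a match to this pair close to the summit, which itself lies outside the match. The capitals mark the match, with 2 mismatches in its first half-site and 1 in its second.
Bbc3, chr7:16309333-16309632: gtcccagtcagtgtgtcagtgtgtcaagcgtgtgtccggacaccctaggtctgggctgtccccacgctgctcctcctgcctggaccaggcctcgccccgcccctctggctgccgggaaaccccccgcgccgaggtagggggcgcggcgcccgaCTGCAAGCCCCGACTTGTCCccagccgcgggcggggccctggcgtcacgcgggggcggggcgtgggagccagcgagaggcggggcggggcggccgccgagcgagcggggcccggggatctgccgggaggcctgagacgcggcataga
The match (16309486 to 16309505) began 4 bases from the p53 summit at 16309482. A second Bbc3 window, around another transcript start, held a looser match with a 2-base gap and 3 mismatches (16310156 to 16310177), which lay 522 bases outside the nearest p53 peak. No TDG peak lay at Bbc3, and the closest TDG summit was 21980 bases below the gene, inside Ccdc9.

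Bax, the pore former, had the weakest p53 peak of the 6 genes. The peak (chr7:45466354-45466719) reached 17.2-fold with 107 reads (interval 87.7 to 129). Its local background of 4 scaled reads was the highest among the member peaks. Its rank in the list was 46 of 126, above the list median and below the upper quartile. The summit lay 325 bases inside the upper-coordinate end of the gene (45461695 to 45466903), or 320 bases after the annotated start, since Bax reads downward in coordinates. The promoter window of Bax was not overlapped by the p53 peak. It nevertheless held a complete half-site, marked in capitals in the stretch below (minus strand), followed after a 1-base gap by a second with 2 mismatches.
Bax, chr7:45467079-45467099: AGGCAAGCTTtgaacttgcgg
That match lay 501 bases from the p53 summit and 360 bases outside the peak. At Bax, then, the peak and the match in the promoter window were at different places, unlike at Bbc3, and sequence under the Bax peak itself was not analysed here. The nearest TDG summit was 27112 bases below the gene, inside Ruvbl2.

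Aen, the apoptosis-linked nuclease gene, had a p53 peak across its start. The peak (chr7:78895761-78896170) reached 25.0-fold with 125 reads (interval 104 to 149), rank 27 of 126. Its summit lay 17 bases inside the lower-coordinate end of the gene (78895927 to 78911209), which is also 17 bases after the annotated start. The window of that start is shown on the plus strand because the p53 summit, at 78895944, fell inside the match in capitals.
Aen, chr7:78895677-78895976: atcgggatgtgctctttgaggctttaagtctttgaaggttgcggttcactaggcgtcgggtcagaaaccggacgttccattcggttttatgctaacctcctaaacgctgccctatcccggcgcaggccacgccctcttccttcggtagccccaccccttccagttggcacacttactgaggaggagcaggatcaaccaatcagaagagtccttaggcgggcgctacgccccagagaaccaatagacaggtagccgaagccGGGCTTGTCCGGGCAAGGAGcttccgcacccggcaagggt
The match ran over 20 bases (78895937 to 78895956), with no mismatch in its first half-site and 3 in its second. The lncRNA gene Gm39039 runs the opposite way, and its start lay 144 bases below Aen. The lower edge of the p53 peak reached into it. The nearest TDG summit was 554944 bases above Aen, in Polg.

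Phlda3, the AKT repressor gene, had the strongest p53 peak of the 10 genes. The peak (chr1:135765895-135766496) reached 47.6-fold, rank 4 of 126, with 189 reads at the summit (interval 163 to 218). Its local background was 2.17 scaled reads. The peak was also the widest member peak at 602 bases, wider than 95.2% of the list. The summit lay 52 bases after the annotated start, 3 bases past the end of the RefSeq window. The window is shown on the plus strand because its last 8 bases, in capitals, match the first 8 letters of a p53 half-site that the window cuts off.
Phlda3, chr1:135765835-135766134: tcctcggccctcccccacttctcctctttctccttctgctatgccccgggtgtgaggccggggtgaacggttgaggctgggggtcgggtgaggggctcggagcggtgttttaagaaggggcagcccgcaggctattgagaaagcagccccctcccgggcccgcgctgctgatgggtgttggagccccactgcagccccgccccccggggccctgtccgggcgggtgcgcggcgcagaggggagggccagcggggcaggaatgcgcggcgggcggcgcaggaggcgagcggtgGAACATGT
Of all 32851 promoter windows, 0.186% ended in at least as many letters of a half-site. No full pair within the limits lay inside the window itself. The nearest TDG summit was 36548 bases below Phlda3, in Csrp1.

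At Trp53inp1 a p53 peak and a TDG peak, each from 1 library, overlapped. Its p53 peak (chr4:11156029-11156406) reached 39.6-fold, rank 9 of 126, with 150 reads at the summit (interval 127 to 176). Its TDG peak (chr4:11156208-11156575) reached 4.95-fold with 18 reads (interval 10.7 to 28.4) over a local background of 2.56 scaled reads. The peaks shared 199 bases and their summits were 58 bases apart, at 174 bases (p53) and 116 bases (TDG) outside the lower-coordinate end of the gene (11156441 to 11174379). The TDG peak crossed into the gene and the p53 peak stopped short of it. In their own lists the peaks stood far apart, since 92.9% of p53 peaks had a lower fold than the one at Trp53inp1 and only 21.8% of TDG peaks did.

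Overlapping peaks of both kinds were found at 0.032% of all protein-coding genes, which is 7 genes. Of these, 3 (Zc3h7a, Cmss1 and Filip1l) lay in regions of high background, which left Trp53inp1, Sp1, Ccng1 and Btg2. The overlapping peaks can also be counted without the TDG rule for genes, and outside regions of high background there were 7 such pairs, a different set, assigned by nearest gene end to Trp53inp1 and to Btg2, Ccng1, Cdkn1a, Sp1, Bahcc1 and Sfi1. The Trp53inp1 pair was 3rd by p53 fold, after Sp1 (45.6-fold) and Bahcc1 (41.7-fold). It had the closest summits, followed by Cdkn1a at 63 bases and Ccng1 at 113 bases, and its TDG fold tied with that of Bahcc1, with only Sfi1 (4.94-fold) lower. Likeness here means only that the peaks overlap in 2 libraries.

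Zmat3, the RNA-binding protein gene, had its p53 peak in the gene body. The peak (chr3:32364169-32364516) reached 36.7-fold, rank 11 of 126, with 139 reads at the summit (interval 117 to 164). The summit lay 1325 bases inside the upper-coordinate end of the gene (32334792 to 32365665), the farthest from an end among the member peaks. The lncRNA gene 4930429B21Rik overlapped that end of Zmat3 by 177 bases, and the summit was not inside it. The nearest TDG summit was 144905 bases above Zmat3, in Zfp639.

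**Figure D2:**
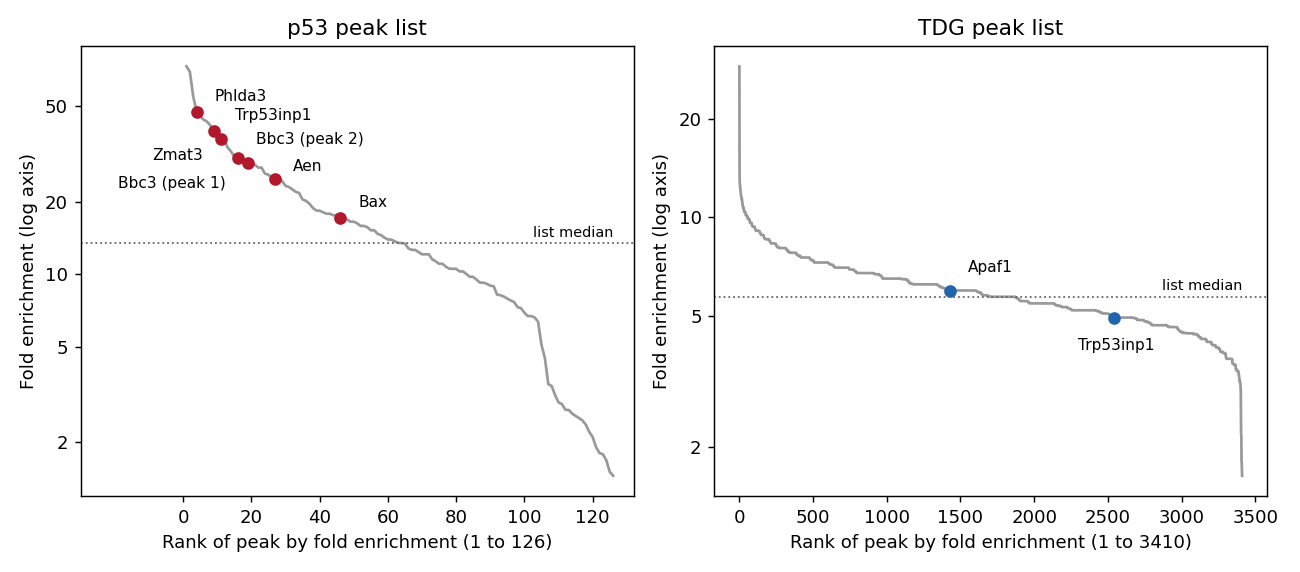
Fold enrichment of every peak (log axis) against its rank in the p53 list (left, 126 peaks) and the TDG list (right, 3410 peaks), with member peaks as dots and each list's median dotted. All 7 member p53 peaks lie above their median of 13.5, whereas the TDG peak of Apaf1 lies just above and that of Trp53inp1 below their median of 5.74.

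By strength, the 7 p53 peaks of the 6 genes ran from Phlda3 through Trp53inp1, Zmat3, the second and the first Bbc3 peak and Aen to Bax. Their median was 30.4-fold, against 12.6-fold for the other 119 peaks of the list, and 6 of the 7 lay above the upper quartile of the list. Neighbours in this order had read counts whose intervals overlapped throughout, whereas those of Phlda3 and Bax did not. The order is by fold and not by reads, and overlap of intervals is no test of a difference. All 7 lay at local backgrounds between 2.03 and 4 scaled reads, where the most frequent value in the list was 2.028. Of the 126 p53 peaks, 23 counted as high background, and all of these were among the other 119. The median fold without them was not computed. Summits lay between 17 and 1325 bases from a gene end with a median of 308 bases, and 5 of 7 (71.4%) lay within 1 kb of one. Among all 118 p53 peaks on placed chromosomes the median distance was 8990 bases and 22.0% lay within 1 kb. Distances in both sets were to the nearest protein-coding gene end. The genes were chosen with the peak lists already examined, so the difference is a description and was not tested. The nearest TDG summit to the p53 summits of the 5 genes other than Trp53inp1 was between 22288 and 570209 bases away.

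Apaf1, the apoptosome scaffold gene, had the reverse pattern, with TDG and no p53. Its TDG peak (chr10:91082948-91083292) reached 5.99-fold with 22 reads at the summit (interval 13.8 to 33.3) over a local background of 2.56 scaled reads. Its rank was 1429 of 3410, and 175 TDG peaks shared exactly this fold, because fold takes few values at low read counts. The interval overlapped that of the 18 reads at Trp53inp1. The summit lay 315 bases outside the upper-coordinate end of Apaf1 (90989311 to 91082743), before its annotated start, since the gene reads downward. It lay inside the gene Ikbip (91082737 to 91102613), which runs the opposite way and overlaps Apaf1 by 7 bases, so the peak counted for both genes and cannot be given to either. The Apaf1 window is shown on the minus strand because it is the member window that a TDG peak reaches, and the capitals mark the 46 bases inside the peak, which hold 5 CpG dinucleotides.
Apaf1, chr10:91082694-91082993: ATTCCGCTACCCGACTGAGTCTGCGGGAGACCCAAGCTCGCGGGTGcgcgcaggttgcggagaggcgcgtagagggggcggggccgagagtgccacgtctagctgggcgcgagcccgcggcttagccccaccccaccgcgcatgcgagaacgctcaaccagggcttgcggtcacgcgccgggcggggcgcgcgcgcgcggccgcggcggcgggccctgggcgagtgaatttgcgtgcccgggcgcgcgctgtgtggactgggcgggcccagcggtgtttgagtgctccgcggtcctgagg
No paired half-sites within the limits were in this window, and the nearest p53 summit was 11306526 bases from Apaf1. As values just inside and just outside the 1 kb limit of the TDG rule, the assigned summits lay 116 and 315 bases from Trp53inp1 and Apaf1, and the next closest lay 21980 bases from Bbc3.

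Fas, the death receptor gene (chromosome 19, 34290647 to 34327775), had no peak of either kind. Its nearest p53 summit was 9926626 bases away and its nearest TDG summit 898547 bases away. Perp (chromosome 10, 18845071 to 18857073) likewise had none, with the nearest p53 summit 10012222 bases away in Sash1 and the nearest TDG summit 609715 bases away in Ccdc28a. The promoter window of Fas held no paired half-sites within the limits. Its 14 CpG dinucleotides were the fewest among the member windows.

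Pmaip1, the gene for NOXA, on chromosome 18 (66458604 to 66465558), had no p53 peak, and the p53 list held no peak on that chromosome at all. Its nearest TDG summit was 1027829 bases away, by Malt1. Chromosome 18 was also sparse for TDG, with 24 TDG peaks and 4.5% of its 511 protein-coding genes called.

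RefSeq promoter windows were matched for 6 of the 10 genes, 9 windows in all, with none for Trp53inp1, Zmat3, Perp and Pmaip1. Adjacent paired half-sites, with no gap and at most 3 mismatches, were in 11 of the 21 windows that overlapped a p53 peak (52.4%) and in 442 of the 32830 other windows (1.35%). Without the member windows the share among windows with a p53 peak was 8 of 17 (47.1%). Allowing gaps of up to 13 bases, the shares were 76.2% and 15.5%. Windows that overlapped a TDG peak held adjacent pairs in 1.84% of 2770 cases, against 1.34% of the 30081 others. With gaps allowed, the order was the opposite, at 14.8% of windows with a TDG peak and 15.6% of those without. Several windows can belong to 1 gene and overlap each other, so these shares are descriptions of sequence, and a match is not a measured site.

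CpG dinucleotides were frequent in the member windows, whether or not a peak overlapped them. Windows with a TDG peak had a median of 25 CpG dinucleotides (quartiles 19 and 31), against 6 (quartiles 2 and 18) for windows without one. Apaf1, with TDG at its edge, had 46, more than 98.4% of all windows. The 3 Bbc3 windows had 34, 30 and 39 without any TDG peak, Phlda3 had 26, the Aen windows 20 and 21, and Bax 19. The Bbc3 and Phlda3 windows were thus at or above the median of windows with a TDG peak, and no TDG peak was called there. The share of equally CpG-rich windows with a TDG peak was not counted, so this absence is a description only.

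**Figure D3:**
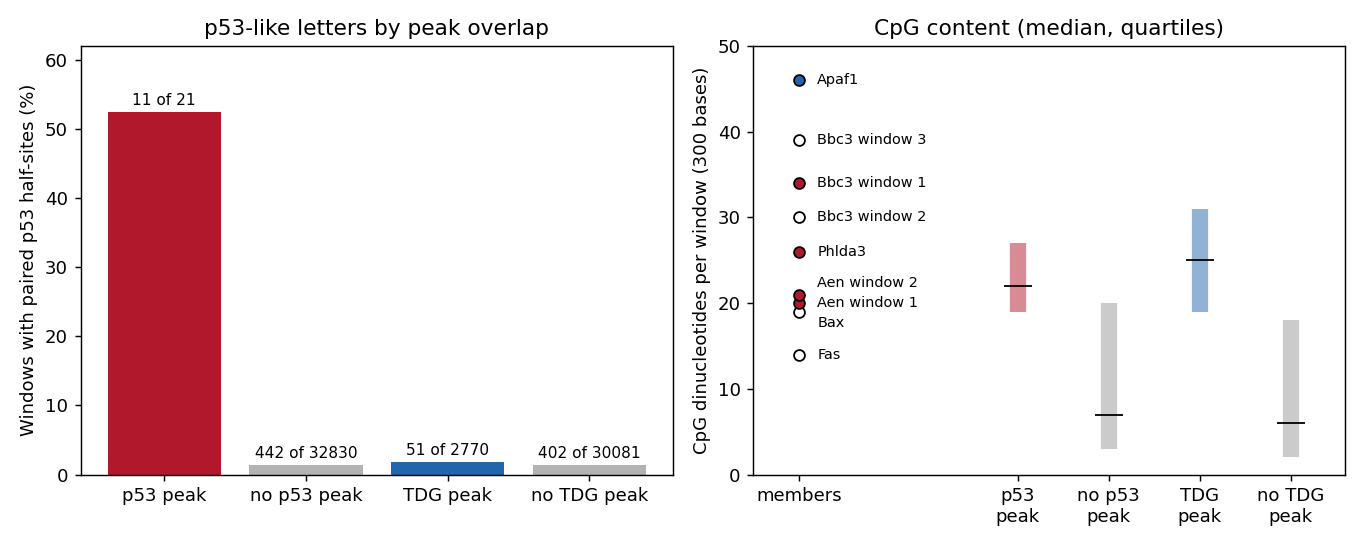
Left, share of 300-base promoter windows holding adjacent paired p53 half-sites, by overlap with a peak of each list. Right, CpG dinucleotides in each member window (red dots, overlapping a p53 peak; blue, a TDG peak; white, neither) beside the median and quartiles of all windows with and without each kind of peak; Apaf1 is highest at 46 and Fas lowest at 14.

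For context, 59 other cell death genes in 7 lists were looked up by the same rules. A p53 peak was assigned to 6 of the 10 p53 apoptosis targets and to none of these 59, against 0.512% of all protein-coding genes, a share so low that 0 of 59 does not stand apart from it. A TDG peak was assigned to 2 of the 10 targets and to 18 of the 59 (30.5%), against 14.8% of all protein-coding genes. In the apoptosome and mitochondrial release list 4 of 7 genes had one, against the same 14.8%. Cycs, which encodes cytochrome c, had a TDG peak of 6.30-fold, Diablo, which encodes an antagonist of caspase inhibitors, one of 7.03-fold, Casp9, which encodes the caspase activated by the apoptosome, one of 5.10-fold, and Htra2, a mitochondrial protease gene, one of 4.53-fold. The summits of all 4 lay within 1 kb of a gene end, at between 7 and 111 bases.

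Among the BH3-only genes that are not in the target list, 3 of 8 had a TDG peak, where the share over all protein-coding genes was 14.8%. Bcl2l11 (BIM) had 2, of 8.21-fold and 7.81-fold, Bid had 1 of 7.64-fold and Bmf had 1 of 6.77-fold, 3628 bases inside its gene. Of the 6 guardian genes, Bcl2l1 (BCL-XL, 7.03-fold) and Mcl1 (4.95-fold) had a TDG peak in the gene body. The pore formers Bak1 and Bok had none. Of 7 caspase genes Casp2 alone had one, at 9.10-fold, a share close to that of all protein-coding genes, and of 10 genes of the death receptor arm Fadd (6.77-fold) and Tnfrsf1a (5.99-fold) did. Of 19 other p53-linked death genes 6 had a TDG peak, the highest at Siva1 (9.13-fold), Steap3 (8.07-fold) and Ppp1r13b (7.29-fold), and Trp53bp2 (6.51-fold) and Gtse1 (4.82-fold) were also among them. The lists were chosen with these data known and are small, so no difference between them was tested.

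**Figure D4:**
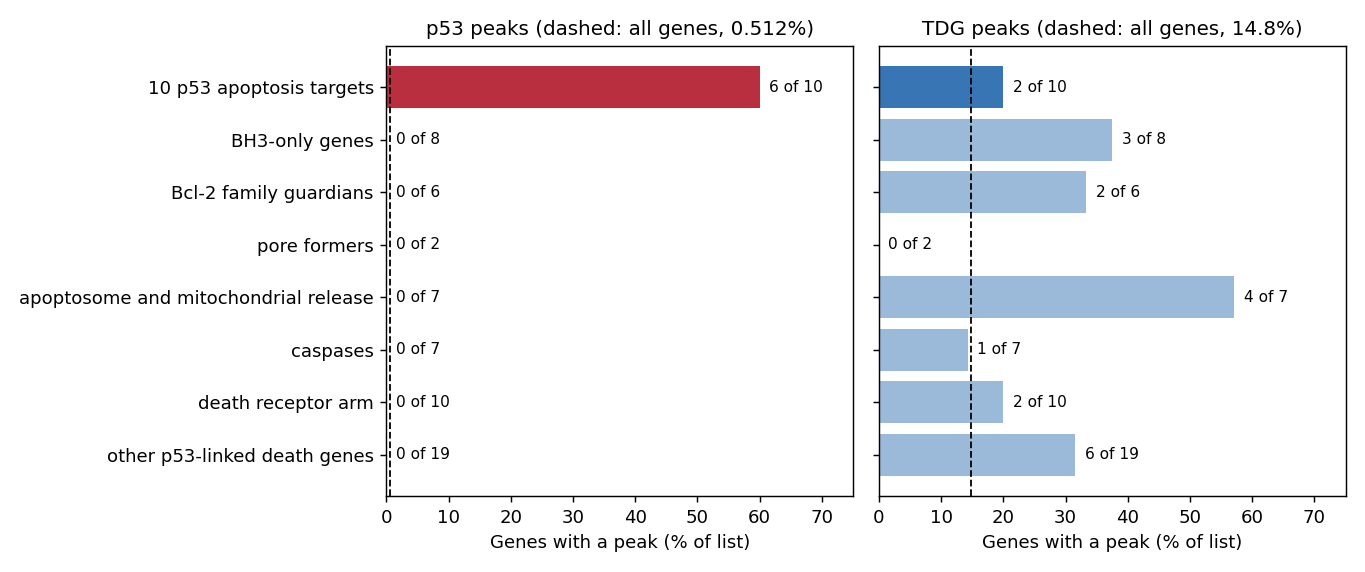
Share of genes with a p53 peak (left) and a TDG peak (right) in the 10 p53 apoptosis targets and in 7 lists of other cell death genes, with counts beside the bars and the share over all protein-coding genes dashed. For p53, 6 of the 10 targets and none of the other genes have a peak, while TDG peaks occur in 6 of the 7 other lists.

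Of 7 melanocyte lineage genes, looked up because B16 is a melanoma line, Mitf and Pmel had a TDG peak, against 14.8% of all protein-coding genes. None of the 7 had a p53 peak, against 0.512% of all protein-coding genes. The list is small and no difference from these shares was tested. Peak lists measure no expression, so they do not check the cell type.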

How the data were processed

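The 2 deposited peak lists come from 2 ChIP-seq libraries, 1 per antibody. The submitters' processing notes name Trim Galore, Bowtie2, Picard, deepTools, MACS2, ChIPseeker and mm10 but no roles or versions. Which control library and threshold were used in calling is not given in the sources used here. For each peak the authors deposited a fold enrichment (the ratio of summit to local background), −log10 p and −log10 q. The deposited score was the −log10 q times 10 without its decimals in all 3410 TDG and 126 p53 peaks.

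The lists carry no library totals. Reads at each summit and the local background were recovered by solving MACS2's formulas for fold, with 1 added to summit and background, and for the Poisson p. The scale of the reads was fitted so that summits at the most frequent background came out whole, which gave 0.924 (TDG) and 0.7924 (p53). Where several solutions existed, the one nearest to whole reads was kept. Summits were then whole within 0.05 reads for 100.0% and 99.21% of peaks, with 1 p53 peak unsolved. As wholeness was used in the fit, these shares are no independent check. Regions of high background had a local background of at least 10 scaled reads, and the unsolved p53 peak was counted with them. Recovery, assignment and site search were tested on simulated data, with settings that differ from some peaks here. Simulated summits held more reads than the member TDG peaks (18 and 22) and fewer than the highest member p53 peak (189). Planted sites had no mismatch and no gap. Recovery at such read counts and the finding of imperfect sites were therefore not tested.

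Genes and promoter windows came from RefSeq for GRCm38.p6, the same coordinates as mm10. Members, lists, rules and motif limits were chosen with earlier results of these data known. All members were named, with up to 6 genes with a peak per list. Python 3.11.15, pandas 2.3.3, numpy 2.4.6 and scipy 1.17.1 were used. Alternatives varied the windows, thresholds, gene assignment and overlap. The value of 1 gene in the comparison lists is not reported here.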

Additional observations from a re-analysis of the deposited data

How the results depend on the processing

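Of 24 recomputed counts of members, 21 held the same genes as reported. The 3 that changed all came from keeping peaks at or above the median fold of their own list. That cut removes the Trp53inp1 TDG peak by construction. The members with a TDG peak then numbered 1 (Apaf1), those with both kinds 0 and those with overlapping peaks 0. The share of all protein-coding genes under this cut was not computed, so the lower counts are no result about the members. The 6 genes with a p53 peak were the same under every alternative run, including a −log10 q of at least 5, ends within 10 kb, noncoding genes as neighbours, the TDG rule and the removal of high background. The cuts on q, fold and background could not have removed a gene. The member p53 peaks had −log10 q of 73.2 to 207, at least 17.2-fold and backgrounds of 2.03 to 4 scaled reads. These unchanged counts therefore add no support. The TDG peak of Trp53inp1 had a −log10 q of 5.09, just past the cut of 5, and that of Apaf1 had 8.19. The unchanged counts of both kinds and of overlapping peaks at that cut rest on the Trp53inp1 value. The 2 TDG peaks rest on 18 and 22 reads, and the p53 peaks on 107 to 189. No paired analysis was possible because each antibody has 1 library. For the same reason no replicate was left out.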
